A study of Homo sapiens with 6 samples.

Results

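The genes described here are 10 antioxidant and aldo-keto reductase genes that are commonly listed as targets of NRF2, namely SLC7A11, GCLC, GCLM, TXNRD1, SRXN1, NQO1, HMOX1, AKR1B10, AKR1C1 and AKR1C2. They were taken by name, with no threshold on a measured value. All 10 stood among the 56303 gene symbols of the count table, and 9 were among the 21005 genes that passed the filter on low counts. AKR1B10 did not pass it.

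The series asked how SW480 cells, a line from a human colorectal adenocarcinoma, change their mRNA when the chromatin protein MORC2 is depleted. One group of 3 libraries carried a nonsilencing hairpin (shCtrl) and the other group of 3 carried a hairpin against MORC2 (shMORC2), and the labels give no further treatment to either group. Both hairpins were delivered by lentivirus, followed by puromycin selection, and the study's methods describe the selected cells as stable clonal lines. With 1 hairpin against MORC2 and 1 control population, the depletion of MORC2, an off-target effect of the hairpin and a difference between the selected populations cannot be told apart.

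The libraries held between 42092664 and 43434425 counts in genes. MORC2 itself stood at 47.1 ± 1.47 CPM (counts scaled to library size by the TMM method, SD, n = 3) in shCtrl and 30.5 ± 4.07 CPM in shMORC2, which is 64.7% of the control level (log2 fold change -0.63, SE 0.10, edgeR adjusted p = 0.000216). All 8 colorectal epithelial markers were detected in every library, with a summed level of 18379 to 23771 CPM in shCtrl and 17726 to 24084 CPM in shMORC2. Of 8 markers of other cells, 4 (PTPRC, CD3E, COL1A2 and DCN, of leukocytes, T cells and stroma) had at most 10 counts in every library. The summed level of those 8 markers was 57.8 to 64.4 CPM in shCtrl and 80.0 to 130 CPM in shMORC2, and the macrophage and lysosome gene CD68 carried most of the rise (log2 fold change 1.27, edgeR adjusted p = 0.000296), while ALB, albumin of liver cells, fell from 2.34 to 0.493 CPM (-2.23, edgeR adjusted p = 8.27e-05). Whether this bears on the genes below was not tested.

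NRF2, encoded by NFE2L2, is a transcription factor that KEAP1 holds in the cytoplasm and passes to a CUL3 ubiquitin ligase for destruction. Oxidants and electrophiles modify KEAP1, so that NRF2 escapes, pairs with a small MAF protein and binds antioxidant response elements near its target genes, where the repressor BACH1 competes for the same sites. The targets supply cysteine and glutathione, regenerate thioredoxin and peroxiredoxins, and reduce quinones, aldehydes and ketones, and in colorectal tumours the pathway is known for its part in resistance to oxidative stress and to drugs.

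The core letters of such an element, TGACNNNGC on either strand, were looked up in the 1000 bases before each RefSeq transcript start on GRCh38. RefSeq starts were held for 7 of the 10 genes (GCLC, GCLM, TXNRD1, SRXN1, NQO1, AKR1C1 and AKR1C2). The letters stood before at least 1 start for 4 of these 7 genes (57.1%) and for 35.5% of all 27305 genes with a start, or in 31.9% of all 35116 single windows. The stricter TGACTCAGC was present only for NQO1 among the 7, for 1.7% of all genes and in 1.4% of all windows. These 30-base stretches are shown because they are the best known kind of NRF2 site, with the matching letters in capitals and each read on the strand of its gene; a match is a description of letters and no evidence of binding in these cells.
NQO1, chr16:69726996-69727025, minus strand: gcagtcacagTGACTCAGCagaatctgagc
GCLM, chr1:93909445-93909474, minus strand: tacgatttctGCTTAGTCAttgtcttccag
GCLC, chr6:53545952-53545981, minus strand: acaggtcattGCTCTGTCAacacatattta
TXNRD1, chr12:104215670-104215699, plus strand: acacgggctaTGACTTCGCtgttgtcaccg
TXNRD1, chr12:104286920-104286949, plus strand: gtggatttctGCTTTGTCAttctgactctg

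The genes did not move as a block. SLC7A11, GCLC and GCLM, which feed glutathione synthesis, were lower in shMORC2, HMOX1 and AKR1C1 were higher, and NQO1, TXNRD1, SRXN1 and AKR1C2 did not pass the test. Of the 9 genes tested, 5 were called at an edgeR adjusted p under 0.05, which is 55.6%, where 39.5% of all genes tested were called. The 2 called higher stand beside 19.9% of all genes called higher, and the 3 called lower beside 19.6% called lower. In the same 5 of 9 genes, all 3 shMORC2 libraries lay on one side of all 3 shCtrl libraries, which held for 50.2% of all genes tested. The median log2 fold change of the 9 genes was -0.14, and that of all genes tested was -0.0056.

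**Figure D1:**
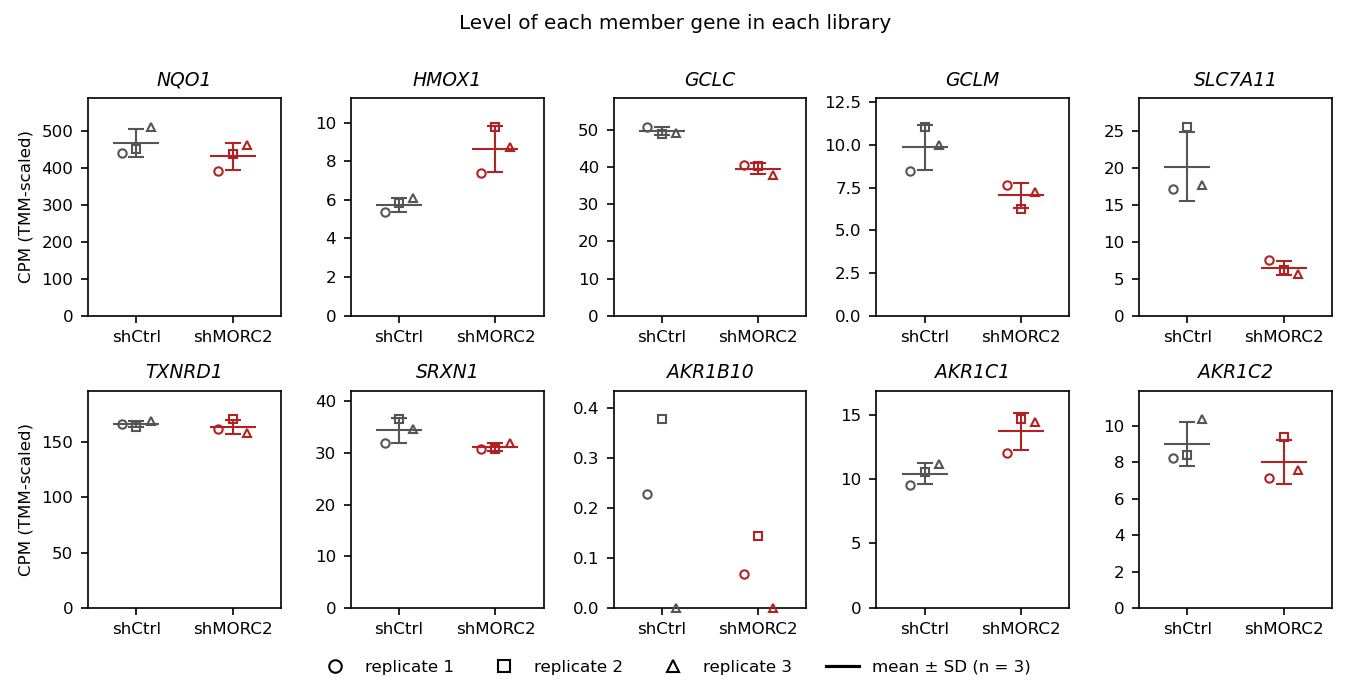
Level of each of the 10 genes in CPM (y axis, from 0 in every panel) in the 3 shCtrl (grey) and 3 shMORC2 (red) libraries; symbols mark the replicate number, and the horizontal line with its bar is the mean ± SD over 3 libraries (left out for AKR1B10, which was not tested). SLC7A11, GCLC and GCLM lie lower in every shMORC2 library, HMOX1 and AKR1C1 lie higher, and the groups overlap for the other 5 genes.

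SLC7A11 (chr4:138164097-138242349, minus strand) encodes xCT, the light chain of the exchanger that imports cystine for glutathione synthesis. Its level was 17.2, 25.6 and 17.7 CPM in shCtrl replicates 1, 2 and 3. In shMORC2 replicates 1, 2 and 3 it was 7.46, 6.15 and 5.59 CPM. The groups were far apart, although the shCtrl libraries were themselves uneven, with replicate 2 above the other two. The shMORC2 level was 31.8% of the control level, with a log2 fold change of -1.65 (SE 0.16, 95% interval -1.995 to -1.31, edgeR adjusted p = 5.64e-06), the widest change among the 9 genes tested. Without shCtrl replicate 2 it was -1.45 (edgeR adjusted p = 2.63e-05). On the log2(RPKM + 1) scale, which understates the change of low genes, it was -0.89 (limma adjusted p = 0.00130). In bulk RNA, fewer cells that express a gene and less RNA per cell cannot be told apart.

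SLC3A2, the heavy chain that carries xCT to the cell membrane, was not lower. It went from 139 ± 17.2 CPM to 159 ± 7.54 CPM in the knockdown libraries (n = 3 each, log2 fold change 0.20, edgeR adjusted p = 0.0932). It was called higher with the replicate number as a block (0.21, edgeR adjusted p = 0.00867) and without shCtrl replicate 2 (0.30, edgeR adjusted p = 0.0202). The block pairs libraries of the same number, a pairing taken from these values alone. The ratio of SLC7A11 to SLC3A2 counts, not corrected for exon length, was 0.144 ± 0.0160 in shCtrl and 0.0403 ± 0.00717 in shMORC2, a log2 difference of -1.85. Every shMORC2 library had the lower ratio, and the two-sided exact permutation p was 0.1, the smallest that 3 against 3 allows (0.15 after Benjamini-Hochberg adjustment over the 3 ratios computed here).

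GCLC (chr6:53497341-53616970, minus strand) is the catalytic subunit of glutamate-cysteine ligase, the first and rate-limiting enzyme of glutathione synthesis. It was measured at 51.0, 49.0 and 49.4 CPM in shCtrl and at 40.6, 40.4 and 37.9 CPM in shMORC2. The replicates of each group were close together and the groups did not overlap, so that a modest difference stood out clearly. The log2 fold change was -0.33 (SE 0.07, 95% interval -0.49 to -0.17, edgeR adjusted p = 0.00336), a level of 79.5% of the control.

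GCLM (chr1:93885205-93909456, minus strand) is the modifier subunit that raises the activity of GCLC. Its level was 8.49, 11.1 and 9.99 CPM in shCtrl and 7.66, 6.22 and 7.26 CPM in shMORC2. All shMORC2 values lay below all shCtrl values, but the gap between the lowest control and the highest knockdown library was narrow. The log2 fold change was -0.48 (SE 0.13, 95% interval -0.76 to -0.20, edgeR adjusted p = 0.00979). The call was lost without shCtrl replicate 2 (log2 fold change -0.39, edgeR adjusted p = 0.0537) or without shMORC2 replicate 2 (-0.40, edgeR adjusted p = 0.0538), and on log2(RPKM + 1) values with no filter on low genes (-0.29, limma adjusted p = 0.0630). The ratio of GCLM to GCLC counts, not corrected for exon length, was 0.198 ± 0.0298 in shCtrl and 0.178 ± 0.0209 in shMORC2, and these overlapped (two-sided exact permutation p = 0.4, n = 3 each).

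TXNRD1 (chr12:104215779-104350305, plus strand) is the cytosolic thioredoxin reductase, which uses NADPH to recharge thioredoxin. It was measured at 166, 163 and 169 CPM in shCtrl and at 162, 171 and 158 CPM in shMORC2. The 2 groups were intermixed. The log2 fold change was -0.02 (edgeR adjusted p = 0.805, SE 0.07), and its 95% interval of -0.18 to 0.13 bounds a change that these libraries could have missed.

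SRXN1 (chr20:646615-653370, minus strand) encodes sulfiredoxin, which repairs over-oxidised peroxiredoxins. Its level was 31.9, 36.6 and 34.7 CPM in shCtrl and 30.8, 30.7 and 32.0 CPM in shMORC2. The shMORC2 libraries sat at the bottom of the control range and the groups overlapped slightly. The log2 fold change of -0.14 did not pass the test (SE 0.08, 95% interval -0.32 to 0.03, edgeR adjusted p = 0.184).

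NQO1 (chr16:69706996-69726951, minus strand), a quinone reductase and the most widely used readout of NRF2 activity, was abundant in both groups. Its level was 441, 450 and 511 CPM in shCtrl and 391.6, 437 and 462 CPM in shMORC2. The ranges overlapped in part, and each shMORC2 library lay below the shCtrl library of the same number. The log2 fold change was -0.12 (SE 0.09, 95% interval -0.30 to 0.07, edgeR adjusted p = 0.297).

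HMOX1 (chr22:35380361-35394214, plus strand), heme oxygenase 1, breaks down heme to biliverdin, iron and carbon monoxide, and is a textbook target of repression by BACH1. It was measured at 5.36, 5.82 and 6.08 CPM in shCtrl and at 7.39, 9.80 and 8.74 CPM in shMORC2. Every shMORC2 library was above every control library. The level was 150.2% of the control (log2 fold change 0.59, SE 0.13, 95% interval 0.31 to 0.87, edgeR adjusted p = 0.00315). The call held when any 1 of the 6 libraries was left out (log2 fold change 0.49 to 0.69, largest edgeR adjusted p 0.0213).

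AKR1C1 and AKR1C2 lie next to each other on chromosome 10 (chr10:4963253-4983283, plus strand, and chr10:4987400-5018031, minus strand, in the count table). Both encode hydroxysteroid dehydrogenases that reduce ketones of steroids and also reduce lipid aldehydes. AKR1C1 is best known for inactivating progesterone and AKR1C2 for inactivating dihydrotestosterone. The coding sequences of both have 969 bases and are 98.0% identical, with 19 differing bases. This stretch of coding bases 73 to 162, from GENCODE transcripts on GRCh38, is shown because it holds 10 of those 19 differences, which are in capitals.
AKR1C1: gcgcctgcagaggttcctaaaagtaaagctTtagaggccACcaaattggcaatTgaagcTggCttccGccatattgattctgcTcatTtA
AKR1C2: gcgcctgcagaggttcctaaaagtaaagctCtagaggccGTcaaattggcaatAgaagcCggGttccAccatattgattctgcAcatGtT

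AKR1C1 stood at 9.51, 10.6 and 11.2 CPM in shCtrl and at 12.04, 14.7 and 14.4 CPM in shMORC2. All shMORC2 libraries lay above all control libraries. The log2 fold change was 0.40 (SE 0.11, 95% interval 0.15 to 0.64, edgeR adjusted p = 0.0128). The call was lost without shMORC2 replicate 2 (log2 fold change 0.34, edgeR adjusted p = 0.0605) or without shMORC2 replicate 3 (0.36, edgeR adjusted p = 0.0548), and on the log2(RPKM + 1) scale the difference was 0.22.

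AKR1C2 stood at 8.21, 8.42 and 10.4 CPM in shCtrl and at 7.12, 9.39 and 7.58 CPM in shMORC2. The groups were intermixed, and the log2 fold change of -0.16 did not pass the test (SE 0.14, 95% interval -0.46 to 0.13, edgeR adjusted p = 0.362). By mean RPKM, which corrects for exon length, AKR1C2 stood above AKR1C1 in shCtrl (1.39 against 1.19). In shMORC2 AKR1C1 had the higher mean (1.55 against 1.24). The ratio of AKR1C1 to AKR1C2 counts, not corrected for exon length, was 1.16, 1.26 and 1.08 in shCtrl and 1.69, 1.56 and 1.90 in shMORC2. Each shMORC2 library had the higher ratio (log2 difference 0.56, two-sided exact permutation p = 0.1, the smallest possible, and 0.15 adjusted over 3 ratios).

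Reads of these copies can be assigned to the wrong one or dropped. Windows of 100 bases were compared between the canonical transcripts of the genes. Of those of AKR1C1, 12.4% also occur in AKR1C2, and of those of AKR1C2, 25.6% occur in AKR1C1. These shares are over whole transcripts, and the share of reads affected was not measured. The split between the copies is therefore uncertain to an unknown extent. Summed with AKR1C3 into 1 feature, the 3 genes rose from 40.7 ± 3.02 CPM to 50.3 ± 3.78 CPM (n = 3 each, log2 fold change 0.31, SE 0.09, edgeR adjusted p = 0.0122). Before the RefSeq starts of AKR1C1 and AKR1C2 no TGACNNNGC was found, and each window held the letters TGATGNAA, the core of a composite C/EBP and ATF4 element, which 13.0% of all windows hold. Both sites are shown because the 2 copies share them, with those letters in capitals.
AKR1C1, chr10:4962896-4962925, plus strand: aataaatttgcTGATGAAAaaagtaatgca
AKR1C2, chr10:5004352-5004381, minus strand: aataaatttgcTGATGAAAaaaagtcatgc

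AKR1B10 (chr7:134527592-134541408, plus strand), which reduces retinal and lipid aldehydes, was near absent. It had 10, 16 and 0 counts in shCtrl replicates 1, 2 and 3 and 3, 6 and 0 counts in shMORC2. The third library of each group had none, where a count of 0 allows up to 3 counts, and the groups overlapped. In the 5 alternatives that could fit it, the log2 fold change was -2.46 to -0.10 and none called it (adjusted p 0.0612 to 0.527). It is not counted in any share above.

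Levels per exon length, in the deposited RPKM values (reads normalised to exon length and sequencing depth), differed between the genes by far more than between the groups. In shCtrl the order by mean RPKM ran from NQO1 (144 ± 8.34) through TXNRD1 (24.8 ± 0.512), SRXN1 (12.8 ± 0.769) and GCLC (5.90 ± 0.248) to AKR1B10 (0.117 ± 0.110, n = 3 each). Between them every library of HMOX1 (mean 2.39) lay above every library of GCLM (1.82), and SLC7A11 (2.10) overlapped both. In shMORC2 the first 5 places were held by the same genes in the same order, with HMOX1 at 3.57 ± 0.428 RPKM clear of the genes below it. SLC7A11 went from sixth to ninth place at 0.663 ± 0.114 RPKM, below every library of GCLM and of both AKR1C genes. AKR1C1 (1.55), GCLM (1.30) and AKR1C2 (1.24) overlapped in shMORC2.

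**Figure D2:**
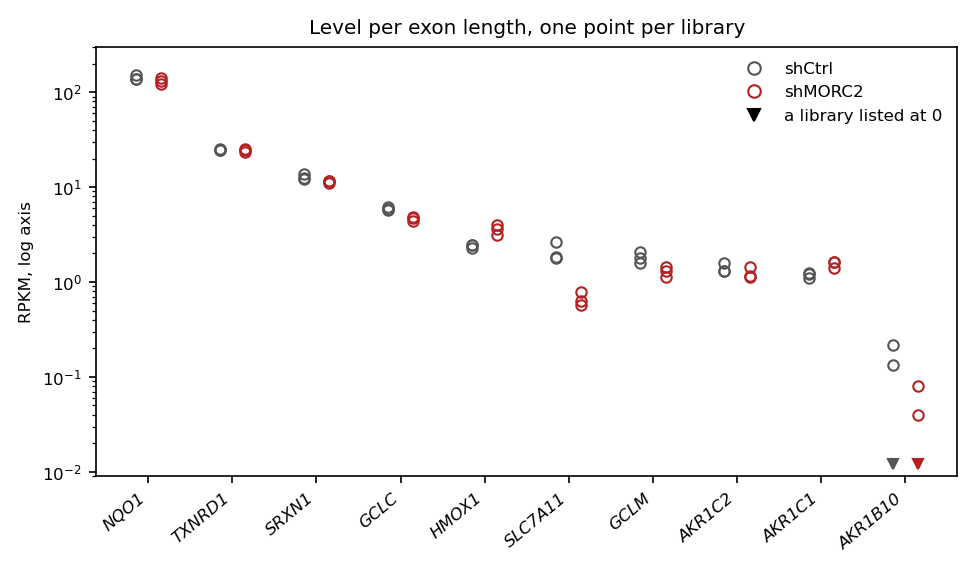
RPKM of the 10 genes (y axis, log scale) with 1 open circle per library, grey for shCtrl and red for shMORC2, ordered by the shCtrl mean; triangles at the foot mark a library listed at 0. NQO1 lies above 100 RPKM in every library, and SLC7A11 falls from a mean of 2.10 to 0.663 RPKM.

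Some of these genes share exons with others, and whether the counting used strand is not given in the sources used here, so reads of a gene and of an antisense partner cannot be told apart. SLC7A11, GCLC and NQO1 each overlap a long noncoding RNA on the opposite strand. SRXN1 and GCLC overlap another transcript on their own strand. SLC7A11-AS1, the partner of SLC7A11, was counted at 2.62, 5.39 and 4.01 CPM in shCtrl and at 1.17, 0.889 and 0.916 CPM in shMORC2 (log2 fold change -2.01, edgeR adjusted p = 6.08e-05).

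Of 13 tested genes that form and control the NRF2 complex, 1 was higher and 6 were lower, with a median log2 fold change of -0.20, beside 19.9% higher and 19.6% lower over all genes. NFE2L2 itself fell from 48.1 ± 4.39 CPM to 36.6 ± 0.771 CPM (n = 3 each, log2 fold change -0.40, SE 0.08, edgeR adjusted p = 0.00230), and all 3 shMORC2 libraries were below all controls. This call held in all 14 alternatives run for it.

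Of its binding partners, MAFK was lower by a log2 fold change of -0.70 (edgeR adjusted p = 8.17e-05, SE 0.09). MAFF was measured at 27.2, 48.8 and 44.2 CPM in shCtrl and at 20.7, 29.9 and 25.9 CPM in shMORC2, so the groups overlapped through shCtrl replicate 1. Its log2 fold change was -0.65 (edgeR adjusted p = 0.0106), and without shCtrl replicate 2 it was -0.49 and no longer called (edgeR adjusted p = 0.0666), and DESeq2 did not call it on all 6 libraries (adjusted p = 0.0763). MAFG had a log2 fold change of -0.20 (edgeR adjusted p = 0.0663).

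The repressor BACH1 was lower as well, at 14.9, 16.8 and 16.3 CPM in shCtrl and 13.5, 11.3 and 10.7 CPM in shMORC2 (log2 fold change -0.43, SE 0.11, edgeR adjusted p = 0.00679). SQSTM1, the autophagy receptor p62 that can sequester KEAP1, had a log2 fold change of -0.58 (edgeR adjusted p = 0.00342). RBX1, the RING subunit of the ligase, had one of -0.39 (edgeR adjusted p = 0.0102), and its call was lost without shCtrl replicate 3 (-0.32, edgeR adjusted p = 0.0597). Both an activator and a repressor of the same sites thus stood lower in the shMORC2 libraries.

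KEAP1 and CUL3, which remove NRF2, had log2 fold changes of 0.20 (95% interval 0.00 to 0.40, edgeR adjusted p = 0.103) and 0.21 (0.04 to 0.38, edgeR adjusted p = 0.0510). With the replicate number as a block, a pairing taken from the values alone, both were called higher (edgeR adjusted p = 0.0312 and 0.00554). NFE2L1 was called higher too (0.14, edgeR adjusted p = 0.0415), while MAFG was called lower (edgeR adjusted p = 0.0182), so that the counts became 4 higher and 7 lower. Without shMORC2 replicate 2 KEAP1 was called (log2 fold change 0.29, edgeR adjusted p = 0.0367). CUL3 was called without shCtrl replicate 1 (0.25, edgeR adjusted p = 0.0333) or shMORC2 replicate 3 (0.26, edgeR adjusted p = 0.0427). DESeq2 on all 6 libraries called CUL3 too (0.21, DESeq2 adjusted p = 0.0467), and 5 of its 14 alternatives called it in total. BTRC, a subunit of the other ligase for NRF2, was the 1 gene called higher (0.22, edgeR adjusted p = 0.0377), and it kept the call in 7 of 14 alternatives. It lost the call without any 1 library other than shMORC2 replicate 1, with edgeR adjusted p of 0.0660 to 0.120. NFE2L3 and GSK3B, the latter a kinase that marks NRF2 for BTRC, had values of -0.03 and 0.07 that did not pass the test. BACH2 did not pass the filter on low counts. Under the block, 49% of all genes were called, and so were 5 of the 9 antioxidant genes, the same 5 as without it.

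**Figure D3:**
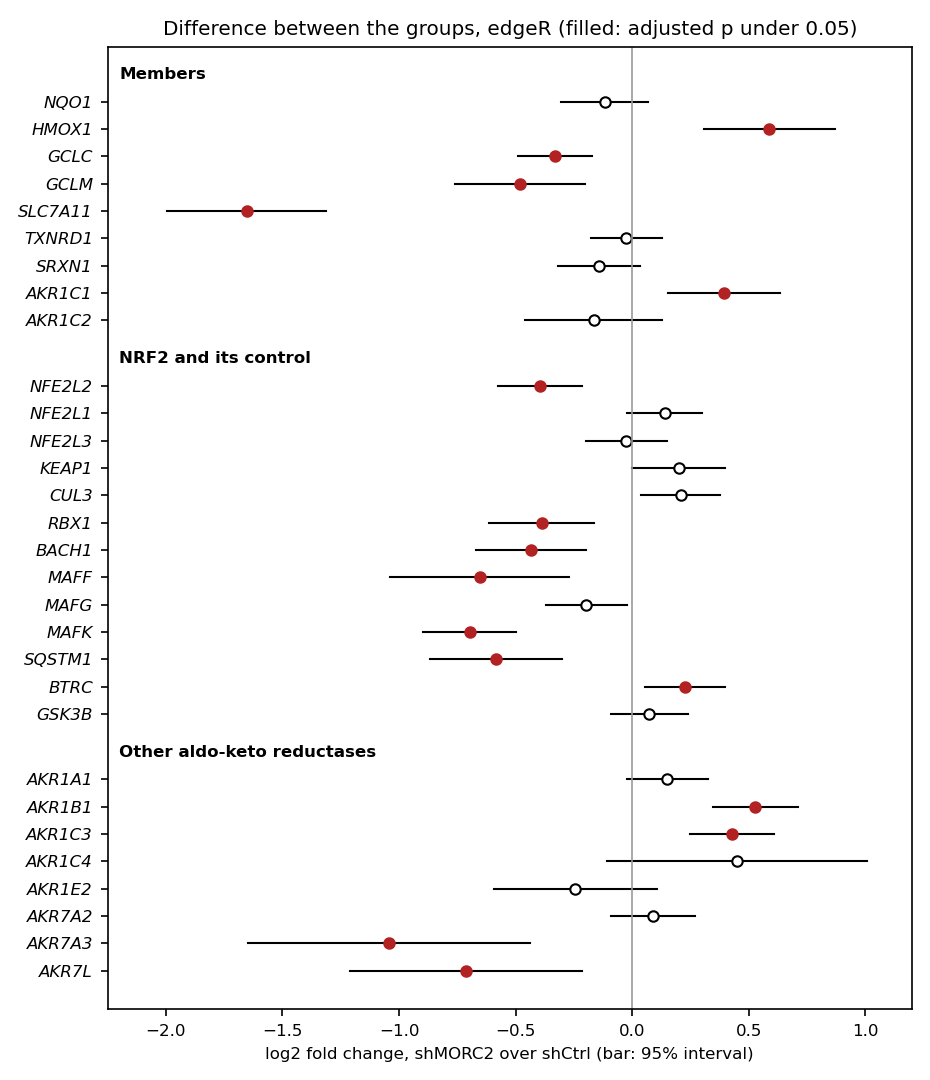
Fitted log2 fold change (x axis, shMORC2 over shCtrl) with its 95% interval (bar) for the 9 genes tested, the 13 tested genes of NRF2 and its control, and the 8 tested genes among the other aldo-keto reductases; filled red points passed an edgeR adjusted p under 0.05. SLC7A11 stands apart at -1.65, NFE2L2, MAFK, MAFF, SQSTM1, BACH1 and RBX1 lie left of 0, and AKR1B1 and AKR1C3 lie right of it with AKR1C1.

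Among 10 other aldo-keto reductase genes, 8 were tested, 2 were higher and 2 were lower. Together these are 50% of those tested, beside 39.5% of all genes, of which 19.9% were called higher and 19.6% lower. AKR1B1, aldose reductase, rose from 35.1 ± 2.33 CPM to 50.7 ± 3.46 CPM (log2 fold change 0.53, SE 0.08, edgeR adjusted p = 0.000305). AKR1C3, which makes testosterone and prostaglandin F, rose from 21.2 ± 1.08 CPM to 28.6 ± 1.35 CPM (0.43, SE 0.08, edgeR adjusted p = 0.00133). For both, the 3 libraries of one group were clear of the 3 of the other.

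AKR7A3, which reduces aflatoxin aldehydes, was low, falling from 1.201 ± 0.0562 CPM to 0.580 ± 0.162 CPM (log2 fold change -1.04, edgeR adjusted p = 0.00974). AKR7L, a close relative of it, had a log2 fold change of -0.71 (edgeR adjusted p = 0.0256). That call was lost without shCtrl replicate 2 or 3 or without shMORC2 replicate 2 or 3 (edgeR adjusted p 0.0709 to 0.0964). AKR1A1 (0.15), AKR7A2 (0.09), AKR1C4 (0.45, at under 2 CPM in every library) and AKR1E2 (-0.24) did not pass the test.

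A wider list of 30 genes described as NRF2 targets, all of them tested, gave 6 higher and 11 lower, with a median log2 fold change of -0.14. Together these are 56.7%, beside 39.5% of all genes, and without shCtrl replicate 2 there were 3 higher and 9 lower. Of those lower, ABCC3, which exports conjugated drugs and bile acids, had the widest gap among well-counted genes, at 71.8 ± 6.75 CPM against 34.5 ± 3.003 CPM (log2 fold change -1.06, edgeR adjusted p = 2.67e-06). GPX2, the glutathione peroxidase of the gut epithelium, went from 271 ± 43.6 CPM to 185 ± 21.4 CPM (-0.55, edgeR adjusted p = 0.00181), and biliverdin reductase BLVRB from 18.9 to 13.0 CPM (-0.54, edgeR adjusted p = 0.00272).

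TXN, thioredoxin, was higher in shMORC2, at 238 ± 7.70 CPM against 141 ± 18.2 CPM (log2 fold change 0.75, edgeR adjusted p = 3.95e-05). EPHX1, the microsomal epoxide hydrolase, was called higher (0.31, edgeR adjusted p = 0.0188), but the call was lost when shCtrl replicate 2 (0.0615) or either replicate 2 (0.0725) or replicate 3 of shMORC2 (0.0939, all adjusted p) was left out. The list thus split in both directions, as did the 9 genes.

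Of 27 tested genes that use or recycle glutathione, 8 were higher and 4 lower (median log2 fold change 0.13), together 44.4%, which is near the 39.5% of all genes. Some genes stand in more than 1 list, so the lists are not independent. All 4 lower genes here are also in the list of NRF2 targets or of ATF4. MGST3, a membrane glutathione transferase, rose from 12.4 ± 0.732 CPM to 21.6 ± 1.42 CPM (0.79, edgeR adjusted p = 3.30e-05). The secreted peroxidase GPX3 was low, rising from 1.85 ± 0.114 CPM to 3.90 ± 0.636 CPM (1.08, edgeR adjusted p = 0.000391). The transferase GSTA4 rose by 0.65 (edgeR adjusted p = 0.00197). GSR, glutathione reductase, was called lower (-0.26, edgeR adjusted p = 0.0442) but kept that call in 6 of 14 alternatives, and it was lost without any 1 library other than shCtrl replicate 1 (edgeR adjusted p 0.0540 to 0.161).

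Of 17 tested thioredoxin, peroxiredoxin, sestrin, superoxide dismutase and catalase genes, 8 were higher and 2 lower (median 0.05), together 58.8% beside 39.5% of all genes. TXNIP, the inhibitor of thioredoxin, was measured at 69.6, 21.5 and 66.0 CPM in shCtrl and at 111, 166 and 144 CPM in shMORC2. The groups did not overlap, and shCtrl replicate 2 was the low library (log2 fold change 1.42, SE 0.30, edgeR adjusted p = 0.00241). The peroxiredoxin PRDX2 rose by 0.68 (edgeR adjusted p = 2.40e-05). SESN2, a stress-induced sestrin, fell by 1.11 on the log2 scale (edgeR adjusted p = 0.00366), or by 0.63 without shCtrl replicate 2 (edgeR adjusted p = 0.00669), and TXNRD2, the mitochondrial counterpart of TXNRD1, had a value of -0.27 (edgeR adjusted p = 0.0402) that was called in 6 of 14 alternatives and lost without any 1 library other than shCtrl replicate 1 (edgeR adjusted p 0.0673 to 0.166).

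SLC7A11 is also a classical target of ATF4, the transcription factor of the amino acid and endoplasmic reticulum stress response, and most genes of that group were lower too. Of 10 genes, ATF4 and 9 of its targets, 8 were lower and none was called higher by edgeR. These 8 are 80%, beside 19.6% of all genes called lower and 39.5% called in either direction. The median log2 fold change of the 10 was -1.01, and all 10 fitted values lay below 0. The 9 targets are a selection, made with earlier results of these data known, and other ATF4 targets were not counted here. ASNS, asparagine synthetase, was measured at 43.5, 51.7 and 45.4 CPM in shCtrl and at 18.4, 16.9 and 16.8 CPM in shMORC2 (log2 fold change -1.43, SE 0.09, edgeR adjusted p = 3.02e-07). The replicates of ASNS were close together within each group.

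DDIT4, an inhibitor of mTORC1, was measured at 131, 383 and 244 CPM in shCtrl and at 41.7, 60.7 and 46.6 CPM in shMORC2 (-2.35, SE 0.28, edgeR adjusted p = 3.16e-05). CHAC1, which degrades glutathione, was measured at 3.47, 16.7 and 4.16 CPM in shCtrl and at 3.31, 2.14 and 3.73 CPM in shMORC2. shCtrl replicate 2 was the high library in both, as it was for SLC7A11, and for CHAC1 it alone set the groups apart. CHAC1 had a log2 fold change of -1.40 (edgeR adjusted p = 0.0283) and one of -0.32 without that library (edgeR adjusted p = 0.323); it was also not called without shMORC2 replicate 2 (0.119) or 3 (0.0654). Without shCtrl replicate 2, 6 of the 10 genes were called lower, beside 3095 of all 21005 genes, and the median of the 10 was -0.52. The part of this group in the values of SLC7A11 was not tested.

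**Figure D4:**
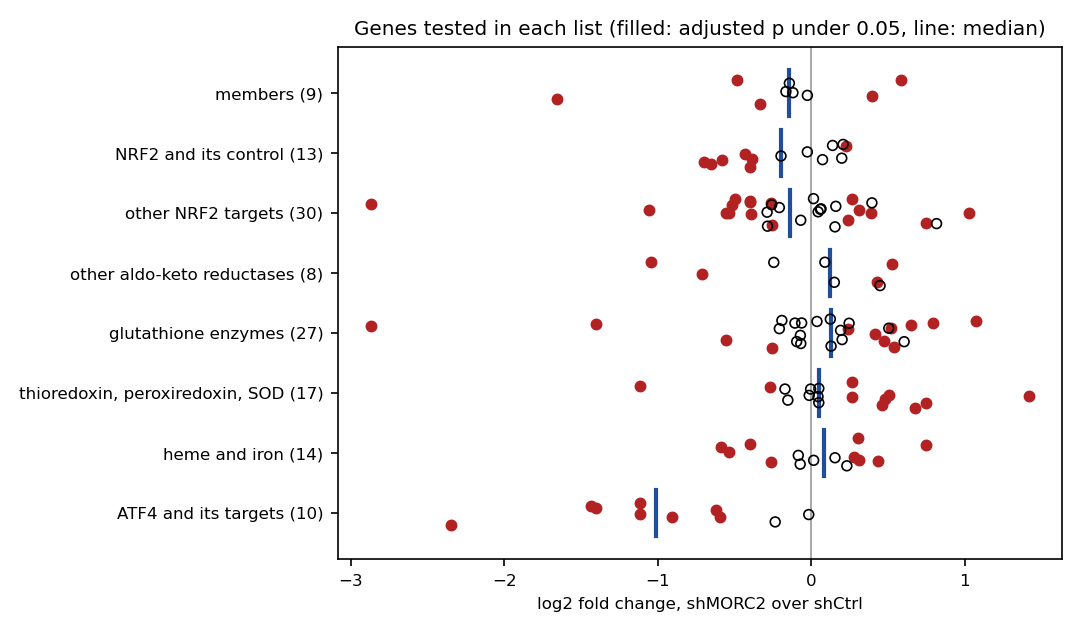
Fitted log2 fold change (x axis, shMORC2 over shCtrl) of every tested gene in each list, with the number tested in brackets; filled red points passed an edgeR adjusted p under 0.05, open points did not, and the blue line is the list's median. The ATF4 list has its median at -1.01 and no gene called higher, and every other list has genes called on both sides of 0.

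The letters TGATGNAA stood before a RefSeq start in 8 of the 10 genes of the ATF4 list (80.0%), in 2 of 7 of the antioxidant and aldo-keto reductase genes (AKR1C1 and AKR1C2) and in 0 of 12 genes of NRF2 and its control, beside 15.1% of all genes. SLC7A11 was not among those 7 genes, since no RefSeq start was held for it, so it was not searched for these letters. Of the 2 genes that share them, AKR1C1 was higher in shMORC2 and AKR1C2 was not called.

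The profile over the 6 libraries was compared with that of 14326 other well-counted genes, by the root mean square difference of centred log2 CPM values, as a description over 6 libraries. SLC7A11 was most like CYP2B6, a drug-metabolising cytochrome P450 (difference 0.138), then the pseudogene IGFL1P1 (0.154) and its own antisense partner SLC7A11-AS1 (0.155). CYP2B6 was measured at 16.4, 18.4 and 16.7 CPM in shCtrl and at 5.82, 5.21 and 4.79 CPM in shMORC2. The nearest gene was CPE, carboxypeptidase E, for HMOX1 (0.0317), HSPD1, a mitochondrial chaperonin, for GCLC (0.0136), and the pseudogene WASH5P, 1 of several near-identical copies, for GCLM (0.0405).

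For the genes that did not pass the test, the nearest were SLC25A5-AS1 for NQO1 (0.0220), HPRT1, a purine salvage enzyme, for TXNRD1 (0.0146), the arginine methyltransferase PRMT5 for SRXN1 (0.0200) and MICALCL for AKR1C2 (0.0479). AKR1C1 was most like RP1-178F15.5 (0.0138). None of these was another of the 10 genes, since members were left out of the search.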

How the data were processed

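Polyadenylated RNA of 3 shCtrl and 3 shMORC2 libraries was sequenced from a stranded kit with molecular identifiers. The authors deposited whole-number read counts per gene symbol (0 columns outside the series) and RPKM values, which equal the counts divided by exon length and library total in 36613 of 36613 genes (relative tolerance 1e-06). The submitters' processing notes name GRCh38, Trimmomatic 0.36, STAR 2.5.3a, featureCounts, Subread 1.5.1 and edgeR 3.12.1. The annotation release, the strand setting and the treatment of identifiers are not given in the sources used here. Splicing tables, which hold the authors' own comparison, were not used.

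Counts of all 6 libraries were fitted in R 4.3.3 with the quasi-likelihood F test of edgeR 4.0.16 (filterByExpr for low counts, TMM scaling, Benjamini-Hochberg adjustment over 21005 genes, called under 0.05). Intervals use the fit's standard error and degrees of freedom, and cover only the spread between these libraries, which may be technical: the labels do not say what a replicate number stands for, and the study's methods speak of replicate experiments. Alternatives used DESeq2 1.42.0, limma 3.58.1 on log2(RPKM + 1) and log2(RPKM + 0.1), other filters and scaling, left-out libraries, summed copies and a replicate block. Same-numbered libraries deviated together from their group means (correlations 0.333, 0.165 and 0.149 across genes). The highest correlation of unlike numbers came near these, at 0.121 for shCtrl replicate 3 with shMORC2 replicate 2. The numbers were used as pairs, from the values alone, in the replicate block only. The main fit and the permutation tests of the ratios used no pairing. The scripts were tested on simulated data. Groups of 3 allow no test for outlying libraries.

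The genes and the lists were chosen with earlier results of these data known. Named by rule were MORC2, the 10 genes, all tested genes of NRF2 control and the other aldo-keto reductases, in each other list the called genes with at least 100 mean counts and the 3 highest and 3 lowest fold changes, and the genes nearest in profile; 1 gene that the rule names is not reported here. Those named outside the rule, namely SLC3A2, GSS, PTPRC, CD3E, COL1A2, DCN, ALB and BACH2, were added after their values were seen. AKR1B15, also outside the rule, is named only for its sum with AKR1B10.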

Additional observations from a re-analysis of the deposited data

How the results depend on the processing

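MORC2 kept its direction and call in all 14 alternatives run for it (log2 fold change -0.74 to -0.55). Of the 10 genes, 5 were called with DESeq2, without TMM scaling, with either other filter, with limma after the filter and with the replicate block. The block gave 10287 calls over all genes against 8301 without it, and 70 against 57 over the other pathway genes. Leaving out 1 library gave 3 to 5 called among the 10, the lowest without shMORC2 replicate 2, when GCLM and AKR1C1 were both lost. Demanding a log2 fold change of at least 1 in size left 1 of the 10, SLC7A11, and 1627 of all genes. Signs turned for TXNRD1 (-0.0555 to 0.0049 over left-out libraries, positive without shMORC2 replicate 3), NFE2L3 (-0.0788 to 0.0182, positive without shMORC2 replicate 1), HPRT1 (-0.0361 to 0.0168) and AKR1C2 read as the sum of 3 copies (0.31), a quantity that AKR1C1 and AKR1C3 set. Calls in the NRF2 control list numbered 7, and 11 with the block or 4 with limma and no filter; in the other aldo-keto list 4, and 2 with limma after its filter, which tests fewer genes; in the ATF4 list 8, and 5 with limma and no filter, where the cause was not tested. Among the values of single named genes over all alternatives, 852 kept direction and call, 61 lost the call, 9 gained it and 6 turned sign. AKR1B10 gave a value in 5 alternatives, called in none, and its sum with AKR1B15 did not pass the filter. The median log2 fold change of all genes was -0.0056 with TMM, -0.0141 without and -0.0038 with DESeq2 size factors. DESeq2 gave no adjusted p for 12779 genes.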

Other observations

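Genes of heme and iron handling, which surround HMOX1, were called in both directions, with 5 of 14 tested genes higher and 4 lower (median log2 fold change 0.09). Together these are 64.3%, beside 39.5% of all genes, of which 19.9% were called higher and 19.6% lower. Of those lower, FTL and BLVRB were also counted in the list of NRF2 targets. Ferroportin SLC40A1, the iron exporter, rose from 10.6 ± 0.353 CPM to 17.8 ± 0.923 CPM (n = 3 each, log2 fold change 0.75, edgeR adjusted p = 5.00e-05). Biliverdin reductase BLVRA rose by 0.44 (edgeR adjusted p = 0.00178) and the transferrin receptor TFRC by 0.31 (edgeR adjusted p = 0.00343). The iron importer SLC11A2 had a log2 fold change of -0.59 (edgeR adjusted p = 0.000786) and the ferritin light chain FTL one of -0.40 (edgeR adjusted p = 0.00145). Ferroportin and the ferritin light chain, both known NRF2 and BACH1 targets, stood on opposite sides, and the cause of either difference was not tested.

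Of the 8 epithelial markers tested, KRT20, a keratin of differentiated colonocytes, was higher (log2 fold change 0.75, edgeR adjusted p = 0.00305), and CEACAM5, the carcinoembryonic antigen, was lower (-1.08, edgeR adjusted p = 0.00265). The intestinal transcription factor CDX2 was called higher (0.47, edgeR adjusted p = 0.0158) but not without shCtrl replicate 2 (0.0648) or 3 (0.0576) or shMORC2 replicate 3 (0.0968, all adjusted p), the last of which left a log2 fold change of 0.31.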
